A study of Mus musculus with 12 samples.

Results

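The genes described here are 7 that set how the kidney makes, breaks down and senses its mineral hormones: Cyp27b1, Cyp24a1, Vdr, Rxra, Kl, Fgfr1 and Pth1r. They were picked by gene symbol, through the Ensembl identifiers of the deposited tables, and all 7 were found among the 32199 genes of one table and the 31719 genes of the other. All 7 also had a mean of at least 0.5 FPKM over all libraries of each table, the level above which genes were tested. FPKM (mapped fragments per kilobase of transcript, as a share of the library) is scaled for transcript length, so levels of different genes can be set side by side within a library.

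Bulk kidney RNA came from 12 male mice aged 8 weeks, in 4 groups of 3. The Padi4 knockout mice (also written PAD4 KO and Pad4 knockout in the labels) lack by label PAD4, a histone-citrullinating enzyme needed for neutrophil extracellular traps, and were set against 3 wild-type C57BL/6 mice of the same batch. The mice labelled Il33 knockout (IL-33 KO) lack by label an alarmin cytokine that damaged cells release, and were set against 3 other wild-type mice of a second batch. Every mouse, wild type included, had lost a kidney by surgery, recovered for 3 weeks, gone without water for 24 h and received furosemide, a loop diuretic, 20 min before the iodinated contrast agent iodixanol was given into a tail vein. The kidney was taken 24 h later, so each comparison is between injured kidneys, and no group without contrast injury was analysed here. The study addressed PAD4-dependent neutrophil extracellular traps, IL-33, ferroptosis and tubular injury. How the alleles were made, and whether the wild-type mice were littermates, is not given in the sources used here.

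Vitamin D becomes a hormone in the proximal tubule, where the enzyme CYP27B1 adds the hydroxyl group that gives calcitriol, and CYP24A1 starts its breakdown. Calcitriol acts through the nuclear receptor VDR, which binds DNA together with a retinoid X receptor such as RXRA. Parathyroid hormone, through PTH1R, raises Cyp27b1 and lowers phosphate uptake, whereas the bone hormone FGF23, through FGFR1 with klotho (the product of Kl) as co-receptor, lowers Cyp27b1, raises Cyp24a1 and also lowers phosphate uptake.

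The 2 tables differed in their summed FPKM and in the share of mitochondrially encoded genes. The FPKM of a library added up to 700601 to 812981 in the PAD4 set and to 385124 to 420279 in the IL-33 set, with 52.0% to 60.0% and 24.1% to 29.2% of those sums on mitochondrially encoded genes, so no level was compared across the sets. Padi4 was at 0.217, 0.497 and 0.187 FPKM in Padi4 knockout kidneys, against 0.704, 1.06 and 1.67 FPKM in their wild-type kidneys (change -0.71 ± 0.19 SE on the log2(FPKM + 1) scale, limma adjusted p = 0.0147; 0.0590 without Padi4 knockout kidney 3 and 0.0752 without wild-type kidney 3). Il33 was at 1.14, 0.616 and 1.02 FPKM in kidneys labelled Il33 knockout, against 1.71, 1.13 and 3.64 FPKM in their wild-type kidneys. The ranges overlapped slightly and the change did not pass the threshold (-0.65 ± 0.28 SE, adjusted p = 0.0990; 0.0350 without wild-type kidney 2), and a gene-level value cannot tell a transcript that lacks deleted exons from an intact one, so these mice are called by their label throughout. In Padi4 knockout kidneys Il33 fell to 0.889, 1.58 and 1.28 FPKM, against 3.57, 5.29 and 3.28 FPKM in wild-type kidneys (adjusted p = 0.00208; 0.0970 with no filter on low values). Most fibroblast, lung and intestinal markers fell in the same kidneys, and their part in the fall of Il33 was not tested.

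Markers of the cell types moved with genotype in both sets. In Padi4 knockout kidneys 9 of 14 proximal tubule markers, 3 of 7 thick ascending limb markers and 4 of 7 distal tubule markers rose, and 1 distal marker fell. In the same comparison 11 of 12 fibroblast and smooth muscle markers, 8 of 12 neutrophil and macrophage markers, 13 of 14 intestinal markers and 7 of 9 lung markers fell, and 1 lung marker rose. The summed FPKM of the intestinal list was 150.2 to 234.9 in Padi4 knockout kidneys, against 401.7 to 572.0 in their wild-type kidneys, and none of its genes was at 0 in any of the 6 libraries. Defining markers of gut (Zg16) and lung (Scgb1a1, Sftpc) were thus present in all 6 kidneys of the PAD4 set, although these are not genes of kidney cells. In kidneys labelled Il33 knockout 10 of 15 proximal tubule markers, 6 of 7 thick ascending limb markers, 5 of 8 distal markers, 4 of 11 fibroblast and smooth muscle markers and 5 of 10 neutrophil and macrophage markers rose, and 1 proximal, 1 distal and 1 macrophage marker fell. Of the intestinal markers 2 of the 4 tested fell there, and of the 2 lung markers tested 1 rose and 1 fell. Neither Zg16, Scgb1a1 nor Sftpc was listed for that set. The highest genes of these lists there were Krt20 (mean 105 FPKM) and Vil1 (45.7 FPKM) of the intestinal list, and Napsa (737 FPKM) of the lung list. The other lung markers were at means of no more than 1.42 FPKM. Few adrenal markers could be tested, and 0 of 2 were called in the PAD4 set and 0 of 1 in the IL-33 set. Of the thyroid and parathyroid markers 0 were tested in the PAD4 set, and 1 of 2 fell in the IL-33 set. Of 8 housekeeping genes 0 were called in the PAD4 set, and 2 rose and 2 fell in the IL-33 set. Calls were made for 17.7% of all genes tested in the PAD4 set and 39.1% in the IL-33 set. The summed proximal tubule markers reached 502.4 to 1365 FPKM in Padi4 knockout kidneys, against 258.0 to 386.2 in wild type, and 3170 to 3797 FPKM in kidneys labelled Il33 knockout, against 2051 to 2980 in wild type.

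Of the 7 genes, Cyp24a1 and Pth1r rose in Padi4 knockout kidneys and none fell, at a background of 17.7% of 13986 tested genes called (8.89% higher and 8.79% lower). Without wild-type kidney 1 of that set 0 of the 7 passed, and Cyp24a1 reached the level for testing there only through the knockout kidneys. In kidneys labelled Il33 knockout Vdr, Kl and Pth1r rose and Cyp27b1 and Rxra fell, at a background of 39.1% of 14513 tested genes called (22.2% higher and 16.8% lower). The median change of the 7 genes was 0.44 in Padi4 knockout kidneys and 0.91 in kidneys labelled Il33 knockout, beside 0.0158 and 0.0442 over all genes tested. In a bulk sample, fewer cells of a type and less RNA per cell cannot be told apart, and the part of the marker shifts above in these changes was not tested. With no filter on low values limma made 0 calls in the PAD4 comparison over 32199 genes, although 6053 had an unadjusted p under 0.05, so each PAD4 call below depends on that filter.

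**Figure D1:**
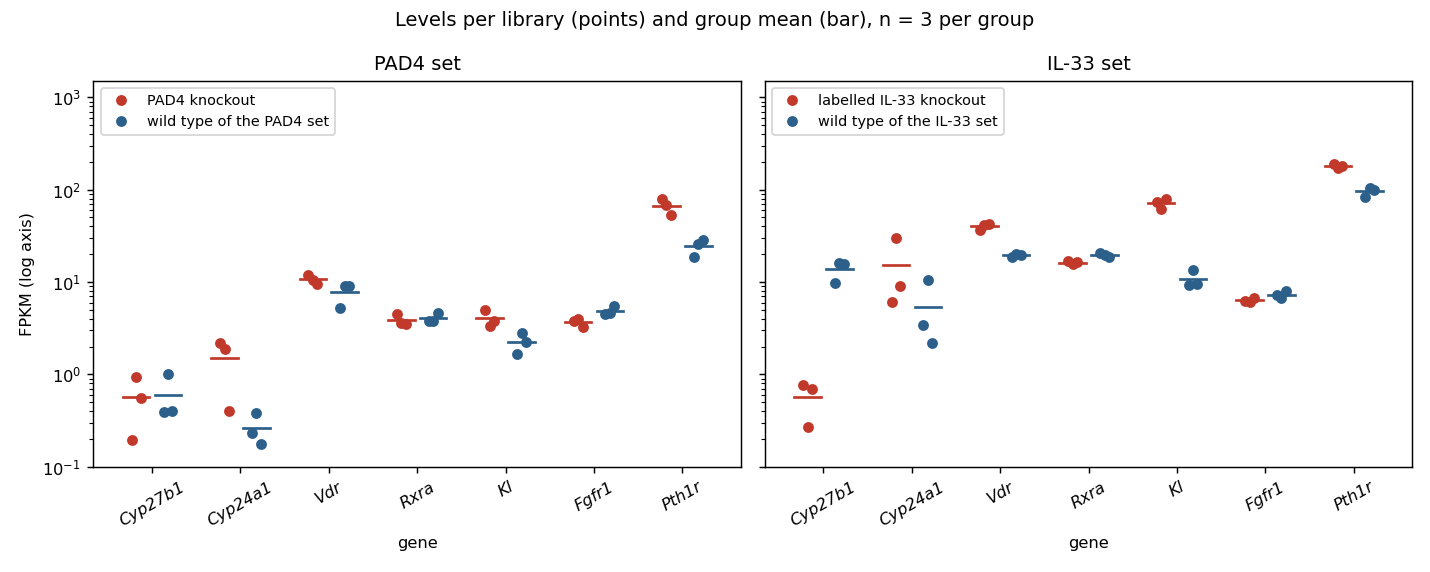
FPKM on a log axis of each of the 7 genes in each library, with the PAD4 set on the left and the IL-33 set on the right; points are libraries (red for knockout by label, blue for wild type of the same set) and bars are means of 3 libraries. Cyp27b1 lay below 1 FPKM in all 3 kidneys labelled Il33 knockout and above 9 FPKM in all 3 of their wild-type kidneys, and Kl was separated the other way.

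**Figure D2:**
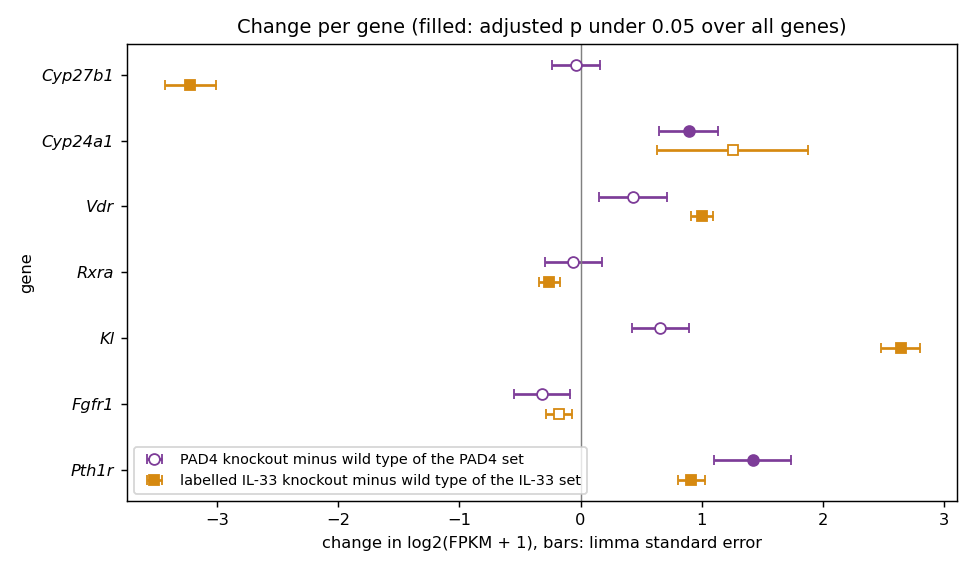
Change in log2(FPKM + 1), knockout by label minus wild type of the same set, with limma's standard error; circles are the PAD4 set, squares the IL-33 set, and filled symbols passed an adjusted p of 0.05 over all genes tested. The change of Cyp27b1 was -0.04 in the PAD4 set and -3.22 in the IL-33 set, and that of Kl 0.66 and 2.64.

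Cyp27b1 (ENSMUSG00000006724), which encodes the enzyme that makes calcitriol, nearly disappeared from kidneys labelled Il33 knockout. It was at 0.761, 0.266 and 0.693 FPKM there, against 9.81, 15.9 and 15.7 FPKM in wild-type kidneys of that set. All 3 values in kidneys labelled Il33 knockout were far below the lowest wild-type value. The mean was 0.574 ± 0.268 FPKM in kidneys labelled Il33 knockout and 13.8 ± 3.46 FPKM in wild type (SD, n = 3 each), which is 4.16% of wild type. On the log2(FPKM + 1) scale it fell by 3.22 ± 0.21 (SE, adjusted p = 6.15e-05), and the call held under all 17 other settings tried (adjusted p 4.58e-05 to 0.00142).

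In the PAD4 set Cyp27b1 was low in both groups, at 0.193, 0.933 and 0.561 FPKM in Padi4 knockout kidneys and 0.395, 1.00 and 0.402 FPKM in wild-type kidneys. The groups overlapped and the change was -0.04 ± 0.20 (SE, adjusted p = 0.929), with a direction that turned when single libraries were left out. The change in Padi4 knockout kidneys exceeded that in kidneys labelled Il33 knockout by 3.18 ± 0.32 (SE, adjusted p = 6.71e-05), at a background of 12.4% of 13010 genes called in that test of the difference (6.23% higher and 6.18% lower). The wild-type level in the PAD4 set was itself so low that a fall of the size seen in the other set could not show on this scale.

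Because Cyp27b1 and Kl changed most among the 7 genes in kidneys labelled Il33 knockout, though not in Padi4 knockout kidneys, the 250 bases before their annotated starts are shown (RefSeq, GRCm38.p6; the build of the deposited tables is not given in the sources used here). The Cyp27b1 window is chr10:127047996-127048245 on the plus strand, and the Kl window is chr5:150952357-150952606, also on the plus strand. Capitals mark matches on either strand to the TATA box letters TATAAA or their variant TATATA, to the CCAAT box, to the GC box GGGCGG or to TGACG, the core of a cAMP response element.
Cyp27b1: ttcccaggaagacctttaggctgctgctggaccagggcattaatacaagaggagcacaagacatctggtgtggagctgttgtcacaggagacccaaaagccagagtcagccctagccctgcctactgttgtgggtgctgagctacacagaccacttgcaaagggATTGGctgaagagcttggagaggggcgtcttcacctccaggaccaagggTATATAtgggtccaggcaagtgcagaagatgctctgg
Kl: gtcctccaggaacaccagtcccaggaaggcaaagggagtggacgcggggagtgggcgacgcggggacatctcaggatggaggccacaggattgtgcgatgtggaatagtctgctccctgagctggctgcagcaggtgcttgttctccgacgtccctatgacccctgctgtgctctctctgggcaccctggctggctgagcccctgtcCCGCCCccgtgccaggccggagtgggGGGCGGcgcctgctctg
The Cyp27b1 window held TATATA at 37 to 32 bases before the start, letters that read the same on both strands and that 5.25% of 32851 such windows hold. It also held CCAAT on the minus strand at 86 to 82 bases before the start, as do 33.8% of windows. The Kl window held GGGCGG at 43 to 38 bases (minus strand) and at 17 to 12 bases before the start (plus strand), letters found in 32.7% of windows, and had 66.8% G or C, against 54.4% for Cyp27b1 and a median of 52.4% over all windows. Neither held TATAAA (12.4% of windows) or TGACG (17.8%). A match describes these letters and is not a binding site.

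Cyp24a1 (ENSMUSG00000038567) encodes the mitochondrial enzyme that begins the breakdown of calcitriol and is itself a classical VDR target. It was at 2.21, 1.86 and 0.396 FPKM in Padi4 knockout kidneys, against 0.232, 0.387 and 0.178 FPKM in wild-type kidneys. Each Padi4 knockout value was above each wild-type value, but the lowest knockout kidney exceeded the highest wild-type one by very little. The change was 0.89 ± 0.24 (SE, adjusted p = 0.0149). This call was lost under 7 of 16 other settings, among them without wild-type kidney 1 (adjusted p = 0.127) and without wild-type kidney 3 (adjusted p = 0.0944).

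Kidneys labelled Il33 knockout had 6.02, 30.2 and 9.16 FPKM of Cyp24a1, against 3.46, 10.5 and 2.17 FPKM in wild-type kidneys. The groups overlapped, with library 2 the highest in each, and the change did not pass (1.26 ± 0.62 SE, adjusted p = 0.148). The changes of the 2 sets differed by -0.36 ± 0.72 (SE, adjusted p = 0.788). Cyp24a1 shares 718 bases with Pfdn4 on the opposite strand, and although the libraries were strand-specific per the labels, whether strand was used in counting is not stated. Pfdn4 was at 5.28, 3.91 and 3.25 FPKM in Padi4 knockout kidneys, against 1.83, 2.36 and 3.12 FPKM in wild type, so its groups were also apart there.

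The ratio of Cyp27b1 to Cyp24a1 within a library sets synthesis of calcitriol beside its breakdown and does not depend on how that library was scaled. It was 0.0871, 0.501 and 1.42 in Padi4 knockout kidneys, against 1.70, 2.59 and 2.26 in wild-type kidneys. In kidneys labelled Il33 knockout it was 0.127, 0.00881 and 0.0757, against 2.83, 1.51 and 7.21 in wild-type kidneys. All 6 wild-type kidneys had more Cyp27b1 than Cyp24a1 per length, whereas 5 of the 6 kidneys of the knockout groups had less. In each set 1 of the 2 genes was not called, Cyp27b1 in the PAD4 set and Cyp24a1 in the IL-33 set (limma adjusted p = 0.929 and 0.148). The PAD4 set ratios also rest on low levels, with wild-type Cyp27b1 at 0.395 to 1.00 FPKM and wild-type Cyp24a1 at 0.178 to 0.387 FPKM. The smallest p of an exact two-sided permutation test is 0.1 with 3 libraries in each group, so the ratio is given as a description.

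**Figure D3:**
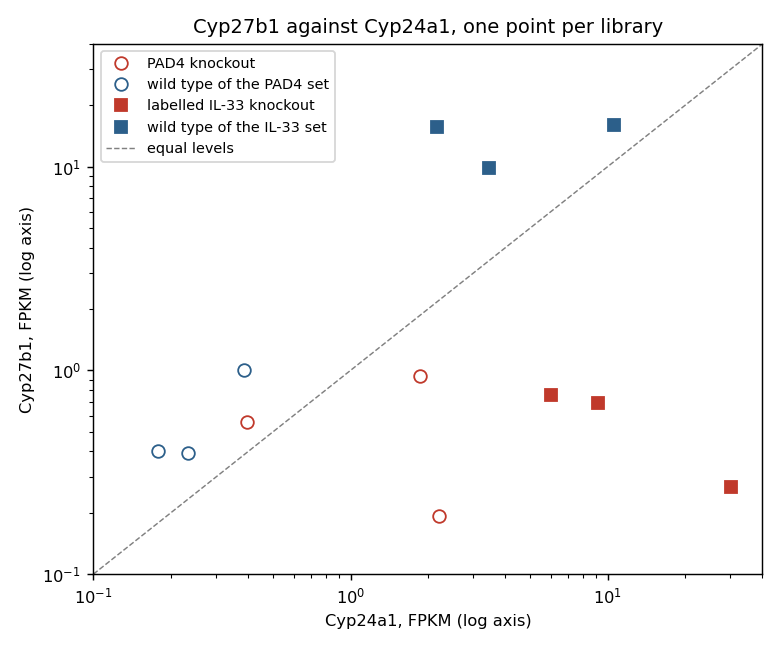
FPKM of Cyp27b1 against FPKM of Cyp24a1 in each of the 12 libraries, both on log axes; open circles are the PAD4 set, filled squares the IL-33 set, red marks knockout by label and blue wild type, and the dashed line marks equal levels. All 6 wild-type kidneys lie above the line, and Padi4 knockout kidney 3 is the one kidney of the knockout groups above it.

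Receptors that take up filtered vitamin D were higher in both sets. Of the vitamin D uptake and hydroxylation list, 4 of 8 tested genes rose and 1 fell in Padi4 knockout kidneys (median change 1.04), and 5 of 8 rose and 1 fell in kidneys labelled Il33 knockout (median 1.16), against 8.89% higher and 8.79% lower, and 22.2% and 16.8%, over all genes tested. Proximal tubule markers rose in the same kidneys (9 of 14 and 10 of 15), and their part in this was not tested. The 4 named members are Lrp2 (megalin) and Cubn (cubilin), endocytic receptors of the brush border, their partner Amn (amnionless), and Gc, the vitamin D binding protein of plasma. Lrp2 was at 13.3, 4.75 and 8.91 FPKM in Padi4 knockout kidneys, against 1.21, 1.37 and 1.94 FPKM in wild type (change 1.91 ± 0.29 SE, adjusted p = 0.000308). It was at 79.5, 61.8 and 66.0 FPKM in kidneys labelled Il33 knockout, against 6.33, 9.41 and 9.55 FPKM in wild type (2.91 ± 0.17 SE, adjusted p = 3.42e-05). The groups were apart in both sets.

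Cubn reached 5.38, 1.91 and 3.52 FPKM in Padi4 knockout kidneys, against 0.526, 0.641 and 0.841 FPKM in wild type (adjusted p = 0.00102), and 23.5, 18.8 and 19.2 FPKM in kidneys labelled Il33 knockout, against 2.26, 3.66 and 3.91 FPKM in wild type (adjusted p = 9.93e-05). The changes of Amn were 1.47 ± 0.31 and 1.10 ± 0.10 (SE, adjusted p = 0.00298 and 0.000215), and those of Gc 1.60 ± 0.27 and 1.74 ± 0.20 (adjusted p = 0.000608 and 0.000576), with the PAD4 set given first. No difference between the sets passed for these 4 genes (adjusted p 0.0857 to 0.842). The falls were of Cyp3a13, a cytochrome P450, in Padi4 knockout kidneys (change -1.44) and of Dab2, an adaptor of megalin, in kidneys labelled Il33 knockout (change -0.76), where the change differed between the sets (1.30 ± 0.29 SE, adjusted p = 0.00860).

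Vdr (ENSMUSG00000022479), the calcitriol receptor, was 2.06-fold higher in kidneys labelled Il33 knockout. It was at 36.7, 41.5 and 42.1 FPKM there, against 18.7, 20.3 and 19.6 FPKM in wild-type kidneys. The groups were apart, with little spread within either, and the change was 1.00 ± 0.09 (SE, adjusted p = 0.000215; 0.000138 to 0.00224 over 17 other settings). Its levels were 12.0, 10.4 and 9.58 FPKM in Padi4 knockout kidneys, against 5.23, 9.07 and 9.11 FPKM in wild type. Those groups were also apart, but by a small margin for 2 of the wild-type kidneys, and the change did not pass (0.44 ± 0.28 SE, adjusted p = 0.315). The changes of the 2 sets differed by -0.57 ± 0.28 (SE, adjusted p = 0.203), a difference that passed under 4 other settings, one of them without wild-type kidney 1 of the PAD4 set (-0.80, adjusted p = 0.0270).

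Rxra (ENSMUSG00000015846), the partner of VDR on DNA, was at 16.7, 15.8 and 16.3 FPKM in kidneys labelled Il33 knockout, against 20.6, 19.6 and 18.7 FPKM in wild-type kidneys. The groups were apart, but the change was small (-0.26 ± 0.09 SE, adjusted p = 0.0464), and the call was lost under 11 of 17 other settings (adjusted p 0.0348 to 0.162), among them without any 1 of the 3 kidneys labelled Il33 knockout (0.12 to 0.162) and without wild-type kidney 1 (0.0786) or 2 (0.0547). The PAD4 set had 4.47, 3.63 and 3.52 FPKM in Padi4 knockout kidneys, against 3.76, 3.81 and 4.66 FPKM in wild type, with overlap and no call (-0.06 ± 0.23 SE, adjusted p = 0.906). The difference between the sets did not pass either (0.20 ± 0.21 SE, adjusted p = 0.586).

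Of 12 tested coactivators, corepressors and other partners of VDR and RXR, 1 rose and 0 fell in Padi4 knockout kidneys (median 0.087), and 4 rose and 0 fell in kidneys labelled Il33 knockout (median 0.209). The shares over all genes tested were 8.89% higher in the PAD4 set and 22.2% higher in the IL-33 set, so a single rise among 12 is near the background. The coactivator Ncoa1 (change 0.48, adjusted p = 0.0168), the corepressor Ncor1 (0.33, adjusted p = 0.0467) and the VDR-binding splicing factor Snw1 (0.35, adjusted p = 0.0395) were among those that rose in kidneys labelled Il33 knockout, and each lost its call when any 1 of the 3 kidneys labelled Il33 knockout was left out (Ncoa1 0.0595 to 0.0708, Ncor1 0.107 to 0.151, Snw1 0.102 to 0.155). Ncor1 and Snw1 also lost it without wild-type kidney 1 (0.0768 and 0.0698) or 2 (0.0579 and 0.0633). The difference between the sets passed for Snw1 (-0.83 ± 0.25 SE, adjusted p = 0.0445; kept under 10 of 23 other settings) and not for Ncoa1 or Ncor1.

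Kl (ENSMUSG00000058488), which encodes klotho and is expressed above all in the distal convoluted tubule, was the gene of the 7 with the largest change upwards in kidneys labelled Il33 knockout. It was at 73.5, 62.0 and 79.6 FPKM in kidneys labelled Il33 knockout, against 9.28, 13.5 and 9.48 FPKM in wild-type kidneys. The groups were far apart. The mean was 71.7 ± 8.93 FPKM in kidneys labelled Il33 knockout and 10.7 ± 2.36 FPKM in wild type (SD, n = 3 each), 6.67-fold higher. The change was 2.64 ± 0.16 (SE, adjusted p = 4.13e-05), and it passed under all 17 other settings (2.01e-05 to 0.00113).

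In Padi4 knockout kidneys Kl was at 5.03, 3.36 and 3.82 FPKM, against 1.66, 2.77 and 2.23 FPKM in wild-type kidneys. All 3 Padi4 knockout values were above all 3 wild-type values, but the change of 0.66 ± 0.23 (SE) did not pass (adjusted p = 0.0597). It passed under 3 other settings, with median-of-ratios scaling (0.0269), with quantile normalization (0.0226) and without Padi4 knockout kidney 2 (0.0335). The change in Padi4 knockout kidneys was smaller than that in kidneys labelled Il33 knockout, by a difference of -1.98 ± 0.28 (SE, adjusted p = 0.000702). Summed markers of the distal tubule, where Kl is mainly made, were 1329 to 1981 FPKM in Padi4 knockout kidneys, against 685.1 to 878.3 in wild type, but 1611 to 2250 FPKM in kidneys labelled Il33 knockout, against 2548 to 3470 in wild type, sums that are mostly Klk1. By count, 5 of 8 distal markers rose and 1, Klk1, fell in kidneys labelled Il33 knockout (median change 0.767), and 4 of 7 rose and 1 fell in Padi4 knockout kidneys (median 0.831).

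Fgfr1 (ENSMUSG00000031565), a receptor through which FGF23 signals with klotho, passed the test in neither set. It was at 3.82, 3.97 and 3.27 FPKM in Padi4 knockout kidneys, against 4.46, 4.57 and 5.53 FPKM in wild-type kidneys. The groups were apart with Padi4 knockout lower, and the change did not pass (-0.32 ± 0.23 SE, adjusted p = 0.389). It was at 6.17, 6.02 and 6.78 FPKM in kidneys labelled Il33 knockout, against 7.16, 6.67 and 8.01 FPKM in wild type, with overlap (-0.18 ± 0.11 SE, adjusted p = 0.228). The difference between the sets did not pass (-0.14 ± 0.20 SE, adjusted p = 0.699).

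Among FGF ligands, other FGF receptors and the enzymes that shed klotho, 4 of 10 tested genes rose and 1 fell in Padi4 knockout kidneys (median 0.251), and 6 of 10 rose and 1 fell in kidneys labelled Il33 knockout (median 0.560). Shares over all genes tested were 8.89% higher and 8.79% lower in the PAD4 set, and 22.2% and 16.8% in the IL-33 set. Under other settings that kept a filter, the rises in Padi4 knockout kidneys numbered as few as 1. Fgf23 itself, made in bone, was below the level for testing in both tables, as was Klb. Fgf1, a ligand of FGF receptors, was at 15.9, 5.07 and 14.2 FPKM in Padi4 knockout kidneys, against 2.75, 3.98 and 4.23 FPKM in wild type (change 1.33 ± 0.33 SE, adjusted p = 0.00921; 0.112 without wild-type kidney 1). It was at 59.6, 59.0 and 53.2 FPKM in kidneys labelled Il33 knockout, against 8.90, 10.4 and 12.4 FPKM in wild type (2.34 ± 0.12 SE, adjusted p = 2.71e-05), so the groups were apart in both sets.

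Fgfr4, another receptor that FGF23 can use, rose in both sets: it was at 8.98, 6.21 and 6.60 FPKM in Padi4 knockout kidneys, against 2.50, 2.83 and 3.44 FPKM in wild type (adjusted p = 0.00579), and at 14.0, 11.0 and 12.5 FPKM in kidneys labelled Il33 knockout, against 5.29, 5.58 and 6.36 FPKM in wild type (adjusted p = 0.000679). Fgfr2 fell to 1.18, 1.18 and 1.19 FPKM in Padi4 knockout kidneys, against 2.55, 2.51 and 3.61 FPKM in wild type (-0.82 ± 0.21 SE, adjusted p = 0.00988), and its change in kidneys labelled Il33 knockout was -0.08 (adjusted p = 0.718). Most lung and intestinal markers fell in Padi4 knockout kidneys too, and their part in the fall of Fgfr2 was not tested. Adam17, one of the proteases that release klotho from the cell surface, rose to 5.74, 4.89 and 5.21 FPKM in kidneys labelled Il33 knockout, against 1.69, 2.26 and 3.21 FPKM in wild type (adjusted p = 0.00494), and its change in Padi4 knockout kidneys was -0.35 (adjusted p = 0.282). The difference between the sets passed for both Adam17 (-1.26 ± 0.25 SE, adjusted p = 0.00533) and Fgfr2 (-0.75 ± 0.22 SE, adjusted p = 0.0392; kept under 10 of 22 other settings).

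Of 11 tested genes that FGF receptor signalling switches on or uses, 1 rose and 0 fell in Padi4 knockout kidneys (median -0.273), and 1 rose and 3 fell in kidneys labelled Il33 knockout (median -0.453). A single rise among 11 is near the 8.89% of all genes in the PAD4 set, and the background of the IL-33 set was 22.2% higher and 16.8% lower. Egr1, an immediate early transcription factor used as a readout of FGF23 in the kidney, fell to 1.20, 2.16 and 3.38 FPKM in kidneys labelled Il33 knockout, against 41.1, 22.2 and 30.5 FPKM in wild type (-3.33 ± 0.29 SE, adjusted p = 0.000179). Egr1 was at 9.37, 14.9 and 5.31 FPKM in Padi4 knockout kidneys, against 11.9, 15.7 and 13.1 FPKM in wild type, with overlap (adjusted p = 0.298), and the difference between the sets passed (2.81 ± 0.45 SE, adjusted p = 0.00143). The ETS factors Etv4 (change -0.58, adjusted p = 0.0388) and Etv5 (-0.56, adjusted p = 0.0202) fell in kidneys labelled Il33 knockout. Etv4 lost its call without library 1 (0.122) or 3 (0.133) of that group and without wild-type kidney 1 (0.0505) or 3 (0.0707), and Etv5 without library 1 (0.0812) or 3 (0.0754) of that group. The adaptor Frs3 rose in both sets, by 0.85 ± 0.22 in Padi4 knockout kidneys (SE, adjusted p = 0.0112; 0.0536 without wild-type kidney 1) and by 0.76 ± 0.14 in kidneys labelled Il33 knockout (adjusted p = 0.00452).

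Pth1r (ENSMUSG00000032492), the receptor of parathyroid hormone, had the highest level of the 7 genes in all 4 groups and rose in both sets. It was at 79.0, 67.6 and 53.5 FPKM in Padi4 knockout kidneys, against 18.5, 26.1 and 28.5 FPKM in wild-type kidneys. The groups were well apart (1.42 ± 0.32 SE, adjusted p = 0.00481), but the call narrowly missed without wild-type kidney 1 (1.24, adjusted p = 0.0526). It was at 187, 173 and 182 FPKM in kidneys labelled Il33 knockout, against 82.3, 105 and 99.6 FPKM in wild type. These groups were also well apart (0.91 ± 0.11 SE, adjusted p = 0.000655), and the call held under all 17 other settings (0.000372 to 0.00482). The mean was 2.74-fold higher in Padi4 knockout kidneys and 1.88-fold higher in kidneys labelled Il33 knockout, and the changes of the 2 sets differed by 0.51 ± 0.30 (SE, adjusted p = 0.295).

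Pth1r shares 5285 bases with Myl3, a muscle gene on the opposite strand. Myl3 was at 2.14, 11.9 and 3.02 FPKM in Padi4 knockout kidneys, against 5.20, 8.05 and 13.5 FPKM in wild type, and at no more than 0.311 FPKM in any kidney of the IL-33 set. Its level was below that of Pth1r in every library, but in wild-type kidney 3 of the PAD4 set it was 13.5 FPKM beside 28.5 FPKM of Pth1r. Whether reads of one were counted for the other was not tested.

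Downstream of the receptor, 0 of 14 tested genes of the parathyroid hormone list rose and 1 fell in Padi4 knockout kidneys (median -0.108), and 3 of 16 rose and 5 fell in kidneys labelled Il33 knockout (median 0.075). Over all genes 8.79% fell in the PAD4 set, and 22.2% rose and 16.8% fell in the IL-33 set, so the 3 rises there are near the background. Pth itself was not listed in either table, and Pthlh and Pth2r were below the level for testing. Cebpb, a transcription factor that parathyroid hormone and many other signals induce, fell in both sets. It was at 19.5, 23.6 and 14.1 FPKM in Padi4 knockout kidneys, against 39.0, 42.2 and 43.6 FPKM in wild type (-1.11 ± 0.31 SE, adjusted p = 0.0161), with the call lost without Padi4 knockout kidney 3 (0.0931) or any 1 of the wild-type kidneys (0.0556 to 0.0670). It was at 15.3, 17.6 and 15.1 FPKM in kidneys labelled Il33 knockout, against 67.2, 106 and 72.4 FPKM in wild type (-2.26 ± 0.17 SE, adjusted p = 0.000103). The groups were apart in both sets, and the difference between the sets passed (1.15 ± 0.31 SE, adjusted p = 0.0246; kept under 18 of 23 other settings).

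Among the 5 falls in that list in kidneys labelled Il33 knockout were those of Crem and Rgs2, both known to be induced by cAMP: the repressor Crem fell by 1.04 (adjusted p = 0.00101), and the G protein regulator Rgs2 fell by 0.90 (adjusted p = 0.00117). The kinase Sik2, which acts in that pathway, fell by 0.72 (adjusted p = 0.0145; 0.0576 without library 1 of that group). None of these 3 passed in Padi4 knockout kidneys (adjusted p = 0.201, 0.104 and 0.533), and for none did the difference between the sets pass (0.154, 0.777 and 0.164).

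**Figure D4:**
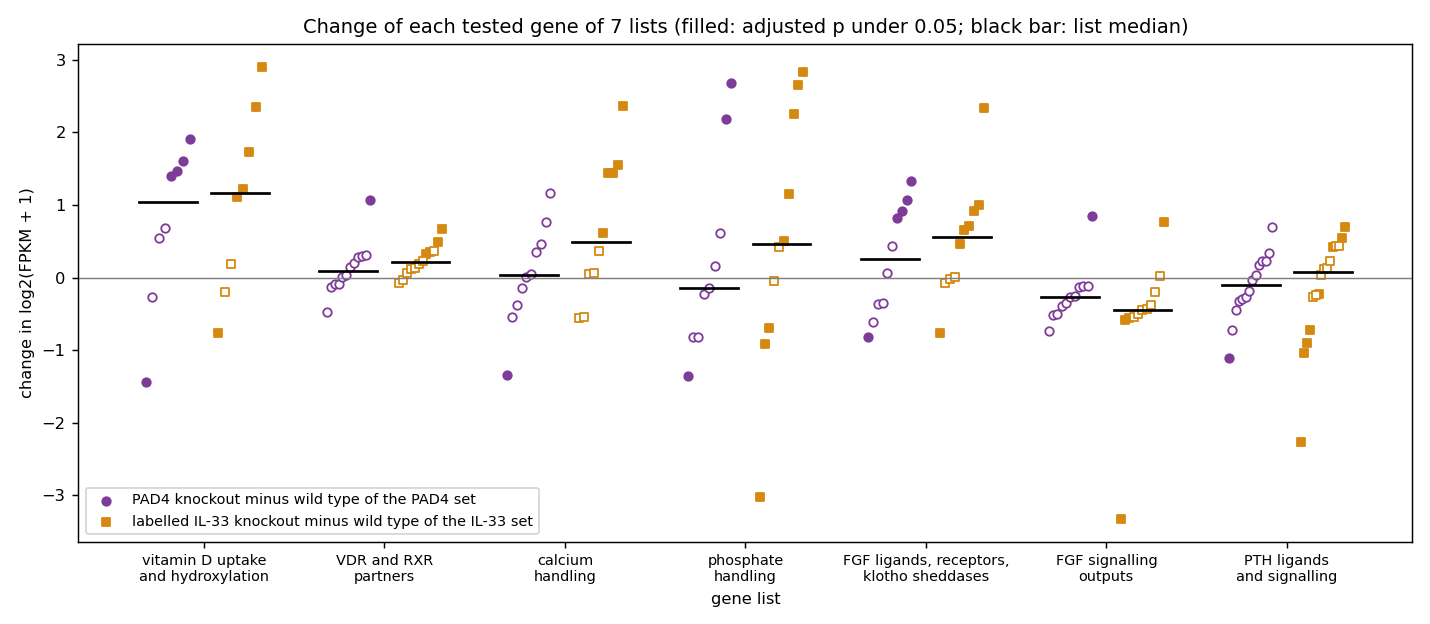
Change in log2(FPKM + 1) of every tested gene of the 7 pathway lists; circles are the PAD4 set, squares the IL-33 set, both knockout by label minus wild type, filled symbols passed an adjusted p of 0.05 over all genes tested, and black bars are list medians. The bar of the vitamin D uptake and hydroxylation list lies near 1 in both sets (1.04 and 1.16), and the other medians lie between -0.453 and 0.560.

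These hormones act on tubular carriers of phosphate and calcium. Of the phosphate list, 2 of 9 tested genes rose and 1 fell in Padi4 knockout kidneys (median -0.141), and 5 of 10 rose and 3 fell in kidneys labelled Il33 knockout (median 0.461). The shares over all genes tested were 8.89% higher and 8.79% lower in the PAD4 set, and 22.2% and 16.8% in the IL-33 set. Slc34a1 (NaPi-IIa), the main phosphate carrier of the brush border, was at 50.5, 18.1 and 59.0 FPKM in Padi4 knockout kidneys, against 4.73, 3.61 and 7.56 FPKM in wild type (2.68 ± 0.38 SE, adjusted p = 0.000178). It was at 686, 371 and 551 FPKM in kidneys labelled Il33 knockout, against 97.1, 75.6 and 74.2 FPKM in wild type (2.66 ± 0.22 SE, adjusted p = 0.000149). Both pairs of groups were apart, and the changes differed by 0.02 ± 0.53 (SE, adjusted p = 0.985). Among proximal tubule markers 9 of 14 rose and 0 fell in Padi4 knockout kidneys, and 10 of 15 rose and 1 fell in kidneys labelled Il33 knockout. Their part in the rises of phosphate genes was not tested.

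Pdzk1, a scaffold that holds Slc34a1 in the brush border, rose by 2.18 ± 0.35 in Padi4 knockout kidneys (SE, adjusted p = 0.000431) and by 2.83 ± 0.19 in kidneys labelled Il33 knockout (adjusted p = 6.15e-05). The scaffold Slc9a3r1 (NHERF1) rose to 162, 146 and 153 FPKM in kidneys labelled Il33 knockout, against 68.5, 64.3 and 73.7 FPKM in wild type (adjusted p = 0.000110), and overlapped in the PAD4 set (adjusted p = 0.222). Slc20a1 (PiT1), a broadly expressed phosphate carrier, went the other way. It fell to 6.71, 6.76 and 7.86 FPKM in kidneys labelled Il33 knockout, against 106, 42.5 and 60.4 FPKM in wild type (-3.02 ± 0.29 SE, adjusted p = 0.000267), and was at 11.6, 35.7 and 6.28 FPKM in Padi4 knockout kidneys, against 32.4, 14.4 and 34.9 FPKM in wild type (adjusted p = 0.239). The difference between the sets passed for Slc20a1 (2.21 ± 0.68 SE, adjusted p = 0.0484), a call kept under 7 of 23 other settings.

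Of the calcium list, 0 of 10 tested genes rose and 1 fell in Padi4 knockout kidneys (median 0.033), and 5 of 10 rose and 0 fell in kidneys labelled Il33 knockout (median 0.485). Among all genes tested, 8.89% rose and 8.79% fell in the PAD4 set, and 22.2% rose and 16.8% fell in the IL-33 set. A single fall among 10 in the PAD4 set is thus near the background. Calb1 (calbindin), the calcium buffer of the distal tubule and a known target of VDR, was at 141, 140 and 189 FPKM in kidneys labelled Il33 knockout, against 58.8, 73.5 and 41.8 FPKM in wild type (1.44 ± 0.21 SE, adjusted p = 0.00157). Calb1 was at 13.8, 9.96 and 10.4 FPKM in Padi4 knockout kidneys, against 5.79, 17.2 and 12.4 FPKM in wild type, with full overlap (adjusted p = 0.943), and the difference between the sets did not pass (-1.38 ± 0.44 SE, adjusted p = 0.0536). Slc8a1, the exchanger that moves calcium out of distal cells, was at 13.4, 12.3 and 17.3 FPKM in kidneys labelled Il33 knockout, against 1.85, 2.36 and 1.72 FPKM in wild type (2.36 ± 0.15 SE, adjusted p = 5.50e-05). Its change in Padi4 knockout kidneys was 0.01 ± 0.19 (SE, adjusted p = 0.975), and the difference between the sets passed (-2.35 ± 0.24 SE, adjusted p = 9.43e-05).

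Casr, the calcium-sensing receptor, rose to 8.15, 11.8 and 9.14 FPKM in kidneys labelled Il33 knockout, against 2.68, 3.11 and 2.88 FPKM in wild type (adjusted p = 0.000308), and was below the level for testing in the PAD4 set. In kidneys labelled Il33 knockout 5 of 8 distal markers rose and 1 fell, and 6 of 7 thick ascending limb markers rose and 0 fell. Their part in the rises of Calb1, Slc8a1 and Casr was not tested. Trpv6, an apical calcium channel, was the one calcium gene called in Padi4 knockout kidneys. It fell to 1.82, 3.50 and 1.59 FPKM there, against 6.86, 4.48 and 11.5 FPKM in wild type (-1.34 ± 0.30 SE, adjusted p = 0.00462; 0.0562 without wild-type kidney 1). Trpv6 is also a channel of the gut, and the intestinal markers fell in the same kidneys; their part in its fall was not tested.

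The order of the 7 genes by FPKM was the same between the groups at the top and differed at the bottom. Pth1r came first in all 4 groups, apart from the next gene each time. In kidneys labelled Il33 knockout Kl (61.98 to 79.57 FPKM) and Vdr (36.73 to 42.06 FPKM) followed and Cyp27b1 came last, with Cyp24a1 overlapping both Rxra and Fgfr1. In wild-type kidneys of that set Rxra and Vdr came next and overlapped, and Cyp24a1 came last, overlapping Fgfr1. In Padi4 knockout kidneys Vdr came second, Kl, Rxra and Fgfr1 overlapped, and Cyp24a1 and Cyp27b1 came last and overlapped. In wild-type kidneys of the PAD4 set Cyp24a1 came last, below Cyp27b1 in range.

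Likeness to other genes was measured as the root mean square difference in log2(FPKM + 1) over 12 libraries, each gene centred on its wild-type mean in each table. Compared were 11529 genes with a symbol that were tested in both tables, without those whose symbol is Gm with digits or ends in Rik. Nearest to Cyp27b1 were Hcn3, a cation channel gene (0.411), Ctxn3 (0.471) and Mirt2 (0.475). Nearest to Kl were Sult1c2, a sulfotransferase gene (0.203), Sfrp1, a secreted Wnt inhibitor gene (0.224), and Hsd3b3, a steroid dehydrogenase gene (0.234). Vdr was nearest to Arsk (0.115), Mpv17 (0.125) and Prnp (0.125), and Pth1r to Gpr89 (0.130), Dalrd3 (0.140) and Acsm1 (0.149). Cyp24a1 had Ttr (0.526), Pkhd1 (0.601) and Acnat1 (0.604), the least close of these sets. Rxra, nearest to Acbd6 (0.0506), Dicer1 (0.0558) and Med12 (0.0600), and Fgfr1, nearest to Eif2ak4 (0.0467), Eloa (0.0550) and Nav1 (0.0674), moved little in either set, so close matches to them were easy to find.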

How the data were processed

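Bulk kidney RNA of 12 mice was analysed, 3 per group. The authors deposited FPKM per gene, a table for each batch, per the file headers. Poly(A) RNA went into strand-specific libraries, per the labels' protocols. Tools named in the submitters' processing notes are DESeq2, edgeR, HISAT2, StringTie, cutadapt and FastQC; build, annotation and versions: not given in the sources used here. Low FPKM values showed no steps of whole reads (the fullest bin of between-library ratios held 1.18% to 1.98% of low genes), so depth is unknown and no interval that needs it is given. Series design text calls the replicates independent. Wild-type columns name no set and were placed by the knockout columns of their table; 0 columns belonged to no sample, and 0 pairs of libraries held identical values. Symbols came from a GENCODE annotation (30212 of 32199 and 29690 of 31719 genes).

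Values were tested as log2(FPKM + 1) with limma 3.58.1 (lmFit, eBayes with trend) in R 4.3.3, two-sided, knockout minus wild type of the same table, over genes with a mean of at least 0.5 FPKM, adjusted by Benjamini-Hochberg over every tested gene, with a threshold of 0.05. A change on this scale understates that of low genes. The difference of the 2 changes was a contrast of 4 group means. The script was tested on simulated data. Genes named from each pathway list are the up to 4 that passed in either comparison with the smallest adjusted p; others are named where a count or a result turns on them, and 1 gene so picked is not reported here. The 7 genes and all lists were chosen with earlier results of these data known. Replicate numbers did not pair libraries (correlations of deviations between same-numbered libraries -0.146 to 0.134). Alternatives were no filter, a mean of at least 2 FPKM, pseudocounts of 0.1 and 0.5, 4 rescalings, array weights, a replicate block, eBayes with no trend, and each library left out.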

Additional observations from a re-analysis of the deposited data

Results flagged for a closer look

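The change in Padi4 knockout kidneys differed from the change in kidneys labelled Il33 knockout for 1615 of 13010 genes (12.4%) by limma's test of the difference itself, on the log2(FPKM + 1) scale, with p adjusted over all of them. Among the 7 genes these were Cyp27b1 (3.18, which fell in kidneys labelled Il33 knockout and overlapped in the PAD4 set) and Kl (-1.98, with a larger rise in kidneys labelled Il33 knockout). Wild-type Cyp27b1 in the PAD4 set, at a mean of 0.599 FPKM, was too low for a fall of that size to show. Its difference therefore cannot tell whether the 2 knockouts act differently on Cyp27b1. Among the genes picked from the pathway lists by the naming rule they were Egr1 (2.81), Slc20a1 (2.21) and Cebpb (1.15), each with a larger fall in kidneys labelled Il33 knockout than its change in Padi4 knockout kidneys, and Slc8a1 (-2.35), Adam17 (-1.26) and Snw1 (-0.83), which did not pass in Padi4 knockout kidneys and rose in kidneys labelled Il33 knockout. Fgfr2 (-0.75) fell in Padi4 knockout kidneys alone by call, where most lung and intestinal markers also fell. Another 5 genes of those lists, not picked by the rule, also passed: Dab2 (1.30, adjusted p = 0.00860), Slc20a2 (0.86, 0.0443), Dhcr7 (-1.49, 0.00259), Atp2b4 (-0.98, 0.0184) and Xpr1 (-0.64, 0.0377), none of them called in Padi4 knockout kidneys. Batch and knockout cannot be told apart in this contrast, since each knockout belongs to its own batch and each batch has its own wild-type level. The differences of Snw1, Slc20a1, Fgfr2 and Cebpb were lost under 13, 16, 12 and 5 of their 22 or 23 other settings; those of Egr1, Slc8a1 and Adam17 were kept under every one.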

How the results depend on the processing

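Among the 7 genes, Cyp27b1, Vdr, Kl and Pth1r kept their calls in kidneys labelled Il33 knockout under all 17 other settings; where others did not, the cause was not tested. In the PAD4 comparison (1243 genes higher, 1230 lower, 2 of the 7 higher) no filter gave 0 and 0 (and 0 of the 7), a minimum of 2 FPKM 762 lower (1 of the 7), quantile normalization 1916 higher, eBayes with no trend 1 of the 7, and array weights 2267 and 2939 (1 of the 7). Leaving out 1 library gave 357 to 1788 higher, 530 to 1755 lower and 0 to 3 of the 7 higher; the lowest, 357 higher and 745 lower with 0 of the 7, was without wild-type kidney 1, and 530 lower (792 higher) without wild-type kidney 3. Without Padi4 knockout kidney 3, 785 were lower. In the IL-33 comparison (3226 and 2445), leave-one-out counts were 2127 to 3851 higher and 1550 to 2670 lower, lowest without library 1 (2128 and 1550) or 3 (2127 and 1604) of the labelled Il33 knockout. Of the 7, 1 to 2 fell when a library was left out, and 1 fell with median-of-ratios scaling, either rescaling to the same sum, eBayes with no trend, array weights or the replicate block, Rxra being lost. In the difference test (811 and 804), no filter gave 1369 lower, a minimum of 2 FPKM 375 lower and 0 of the 7 higher, median-of-ratios scaling 1678 and 1363 (2 and 2 of the 7), quantile normalization 1750 and 1385 (2 of the 7 lower), and array weights 1488 and 2037 (2 lower). Leaving out 1 library there gave 532 to 1027 higher and 550 to 1128 lower, and 1 to 2 of the 7 lower. Changes that turned sign were Cyp27b1 in the PAD4 set (0.0376 with quantile normalization, 0.14 without Padi4 knockout kidney 1, 0.13 without wild-type kidney 2, lowest -0.21), Rxra there (0.0225 without wild-type kidney 3, lowest -0.14) and the difference for Cyp24a1 (0.44 with a pseudocount of 0.1, 0.01 without Padi4 knockout kidney 3, 0.03 without wild-type kidney 3 of the IL-33 set, 0.26 without library 2 of the labelled Il33 knockout, lowest -0.90); none had passed. With the replicate number as a block, which the numbers do not justify as a pairing, 951 and 1033 genes were called in the PAD4 set and 3065 and 2271 in the IL-33 set, and Cyp24a1 passed in kidneys labelled Il33 knockout (adjusted p = 0.00396) while Rxra did not (0.0970). For the pathway genes picked by the naming rule, 26 calls were made in the IL-33 set, of which 19 were kept under every setting, and 13 in the PAD4 set, all of which were lost with no filter.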
